A study of Mus musculus with 16 samples.

Results

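The genes described here encode the transferases of phase II metabolism, the step in which a small polar group is joined to a lipophilic molecule. They comprised the cytosolic and microsomal glutathione transferases (symbols Gsta, Gstk, Gstm, Gsto, Gstp, Gstt, Gstz and Mgst followed by a number), the UDP-glucuronosyltransferases and their relatives (Ugt1, Ugt2 and Ugt3) and the sulfotransferases (Sult). Every probe whose gene symbol in the platform table had one of these forms was taken, whatever its signal, which gave 71 probes of 51 genes among 25697 probes on the array. Of these, 34 probes of 24 genes belonged to the glutathione transferases, 20 probes of 15 genes to the glucuronosyltransferases and 17 probes of 12 genes to the sulfotransferases.

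Glutathione transferases join the thiol of glutathione to reactive electrophiles, and several also reduce peroxides or isomerise metabolites. UDP-glucuronosyltransferases sit in the endoplasmic reticulum and transfer glucuronic acid from UDP-glucuronic acid to bilirubin, steroids, bile acids and drugs, whereas sulfotransferases transfer sulfate from the activated donor PAPS to phenols, catecholamines, steroids and bile acids. Liver is the main organ for all these reactions. In brain some members act on neurotransmitters and neurosteroids, and many are under the control of the transcription factor NRF2 or of xenobiotic receptors such as the constitutive androstane receptor, the pregnane X receptor and the aryl hydrocarbon receptor.

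The series compared 4 homozygous and 4 wild-type male mice, aged 17 weeks, with the strain given as C57BL/6J and the allele as Pts-R15C-ki. Pts encodes pyruvoyl-tetrahydropterin synthase, an enzyme in the synthesis of tetrahydrobiopterin, on which the hydroxylases of phenylalanine, tyrosine and tryptophan and the nitric oxide synthases depend. Brain and liver of each mouse were each hybridised to 1 single-colour Illumina array, so there were 16 arrays: 4 of homozygous brain, 4 of wild-type brain, 4 of homozygous liver and 4 of wild-type liver. Whole tissue was used, so fewer cells of a type and less RNA per cell cannot be told apart.

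Between 13241 and 14576 probes were detected on a brain array and between 11785 and 12315 on a liver array, where detected means a detection p-value under 0.05 against the negative control beads. Of 8 hepatocyte markers, 7 were detected on all 8 liver arrays and 3 on all 8 brain arrays. All 8 brain arrays detected 5 of 7 neuronal, 7 of 7 astrocyte and 5 of 5 oligodendrocyte markers. The brain arrays were split at the median of their upper-quartile signal into a brighter set (homozygous mice 1 and 2, wild-type mice 1 and 3) and a dimmer set. The size of the sets was thus fixed in advance. The livers of wild-type mice 1 and 2 stood apart from the other 6: the mean log2 signal of 22 acute phase genes, relative to the mean of all 8 livers, was -0.81, -1.02, -0.93 and -1.18 in homozygous mice 1 to 4, and 2.13, 2.18, -0.40 and 0.03 in wild-type mice 1 to 4. The counts between genotypes in liver, and the differences of the probes described one by one, are therefore given with and without those 2 mice.

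Upstream sequences are shown for 4 of the genes named below. Ugt2a3 passed the test between genotypes in liver, and Gstm5 had a higher signal in brain. Gsta3 and Mgst1 had the highest liver over brain differences among the glutathione transferases. Each sequence is the 250 bases before the transcription start in RefSeq, build GRCm38.p6, written on the strand of the gene. Ugt2a3 lies on the minus strand (chr5:87337196-87337445), and Gsta3 (chr1:21240335-21240584), Mgst1 (chr6:138140277-138140526, the first of its 2 listed starts) and Gstm5 (chr3:107895604-107895853) lie on the plus strand. Capitals mark TGACNNNGC, the core of the antioxidant response element that NRF2 binds, or GTTAAT, the half-site of the hepatocyte factor HNF1, on either strand.
Ugt2a3: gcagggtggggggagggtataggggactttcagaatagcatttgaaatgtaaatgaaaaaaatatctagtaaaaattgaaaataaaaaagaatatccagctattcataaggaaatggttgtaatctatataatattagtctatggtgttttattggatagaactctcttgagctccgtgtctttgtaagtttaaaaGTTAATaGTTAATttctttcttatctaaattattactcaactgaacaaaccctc
Gsta3: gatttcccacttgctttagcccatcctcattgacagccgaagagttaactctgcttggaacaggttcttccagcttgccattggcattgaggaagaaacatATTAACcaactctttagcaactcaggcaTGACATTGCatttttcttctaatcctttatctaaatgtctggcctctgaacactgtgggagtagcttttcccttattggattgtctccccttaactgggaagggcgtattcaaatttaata
Mgst1: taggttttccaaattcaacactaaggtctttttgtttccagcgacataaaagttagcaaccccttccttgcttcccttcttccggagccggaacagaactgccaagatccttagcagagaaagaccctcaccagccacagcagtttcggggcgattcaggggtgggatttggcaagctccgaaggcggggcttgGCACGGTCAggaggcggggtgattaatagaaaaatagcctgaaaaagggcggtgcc
Gstm5: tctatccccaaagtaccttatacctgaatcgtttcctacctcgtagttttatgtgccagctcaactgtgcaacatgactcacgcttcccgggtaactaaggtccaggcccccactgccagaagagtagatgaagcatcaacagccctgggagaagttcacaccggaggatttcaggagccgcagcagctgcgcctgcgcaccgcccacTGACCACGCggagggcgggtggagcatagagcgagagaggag

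Upstream sequences were listed for 47 of the 51 genes, at 58 starts. The antioxidant response element core was present at 3 of the 58 starts (5.17%), those of Gsta3, Gstm5 and Mgst1, and at 10.2% of the 32851 promoters of all genes. The HNF1 half-site was present at 8 starts (13.8%), against 6.43% of all promoters, and the genes were Gsta3, Sult1a1, Sult1d1, Sult2a6, Ugt1a10, Ugt1a6a, Ugt2a3 and Ugt3a1. In Ugt2a3 it occurred 2 times in tandem. The half-site was searched after the sequences had been seen. The full HNF1 palindrome is the half-site, 1 base of any kind and the reverse complement of the half-site. It was present at 0 of the 58 starts, and at only 3 of the 32851 promoters of all genes (0.00913%). Its absence here therefore says little about these genes. GCGTG, the core that the aryl hydrocarbon receptor binds, was present at 10 starts (17.2%), against 28.2% of all promoters, and TGNACTTTG, a form of the HNF4 site, at 0 starts, against 1.19%. In Gstm5 a match to GCGTG, read on the opposite strand, lay within the antioxidant response element core, and no other matches overlapped in the 4 sequences printed. All 4 printed sequences hold a marked match. The upstream sequences of Ugt2b36 and of the second Mgst1 start held no match to any motif searched and are not printed. Gstt2, which also passed in liver, is not printed either. The matches describe letters and not binding, and absence from this window says nothing about sites elsewhere.

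Most of these transferases had far more signal in liver than in brain, and a few had the reverse. Of 53 probes of 38 genes that could be compared between tissues, 44 were higher in liver and 6 in brain in homozygous mice (limma on the difference within each mouse, adjusted p under 0.05). In wild-type mice the counts were also 44 and 6. Of all 15712 probes tested, 38% were higher in liver and 37.5% in brain in homozygous mice, against 38.6% and 37.4% in wild-type mice. The median difference over the 53 probes, as log2 of liver over brain, was 4.28 in homozygous and 3.79 in wild-type mice. Over all tested probes it was 0.02 in homozygous and 0.04 in wild-type mice. The probes detected on all livers and no brain of a genotype, 19 in homozygous and 20 in wild-type mice, entered the test through their liver signal, so the counts describe them and do not support a pattern. The same holds for probes detected on all brains and no liver, 3 in homozygous and 2 in wild-type mice, which entered through their brain signal. Of the 23 probes detected on all 16 arrays, 20 were higher in liver and 3 in brain in each genotype. Of all 8560 probes so detected, 3768 were higher in liver and 2817 in brain in homozygous mice. In wild-type mice the counts over all such probes were 3812 and 2806.

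Glucuronosyltransferase signal was close to background in brain. Of the 20 probes, 18 were detected on none of the 8 brain arrays, and 13 were detected on all 8 livers. These 13 were tested and higher in liver in both genotypes, but 11 of them passed the detection filter through liver alone, and the other 7 probes were not tested. Ugt2b36, one of the Ugt2b enzymes that act on steroids and xenobiotics, had a mean log2 signal of 13.46 in liver and 4.41 in brain of homozygous mice, and of 13.13 in liver and 4.32 in brain of wild-type mice. As it was not well above background on any brain array, the difference is a bound. Its signal was at least 435-fold higher in liver in homozygous mice and at least 352-fold higher in wild-type mice. The probe entered the test through its liver signal alone, so no p-value is given for it. The bound sets the liver mean against the lowest detected signal of each brain array. Ugt3a2, whose human counterpart uses sugars other than glucuronic acid, was at least 229-fold higher in liver in homozygous and at least 235-fold higher in wild-type mice. Ugt1a10 was detected on 1 homozygous and 3 wild-type brain arrays, so its fitted log2 differences of 7.90 (SE 0.12) in homozygous and 7.61 in wild-type mice rest on brain signals near background. Ugt1a genes share their last exons, so a Ugt1a probe may read several of them, which was not tested.

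Among glutathione transferases, 25 of 31 tested probes were higher in liver and 3 in brain in each genotype. Gsta3, an alpha-class enzyme, was detected in every liver and brain on its brighter probe and had 235-fold more signal in liver than in brain in homozygous mice, and 210-fold more in wild-type mice. Mgst1, the microsomal enzyme of the endoplasmic reticulum and outer mitochondrial membrane, was 147-fold and 110-fold higher in liver on its 2 probes in homozygous mice, and 155-fold and 114-fold higher in wild-type mice. Both were also detected on all 8 brain arrays, unlike most glucuronosyltransferases. Gstz1, the maleylacetoacetate isomerase of tyrosine breakdown, was 16.9-fold higher in liver in homozygous mice and 15.8-fold in wild-type mice. Gstp1, the pi-class enzyme, was 10.7-fold and 7.53-fold higher on its 2 bright probes in homozygous mice, and 11.2-fold and 8.32-fold higher in wild-type mice. All of these differences passed the test with every mouse in the same direction.

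Gstm5 and Mgst3 ran the other way. The log2 signal of Gstm5, a mu-class enzyme, in homozygous mice 1 to 4 was 8.11, 7.82, 8.18 and 8.20 in liver, and 10.75, 10.86, 10.65 and 10.28 in brain. In wild-type mice 1 to 4 it was 8.49, 8.37, 8.12 and 8.24 in liver, and 10.67, 10.68, 10.97 and 10.64 in brain. No liver reached any brain value, and brain had 5.89-fold more signal in homozygous mice and 5.40-fold more in wild-type mice. Mgst3, a microsomal enzyme with peroxidase activity that also conjugates leukotrienes, had 3.70-fold and 2.52-fold more signal in brain on its 2 probes in homozygous mice, and 4.97-fold and 2.96-fold more in wild-type mice. Both Gsto2 probes and 1 dim Gstm1 probe (ILMN_2626491) did not pass in either genotype, while the bright Gstm1 probe was 7.59-fold higher in liver in homozygous and 4.57-fold higher in wild-type mice.

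Among sulfotransferases, 6 of 9 tested probes were higher in liver and 3 in brain in each genotype. In homozygous mice 5 of the 9 were detected on all livers and no brain, and 3 on all brains and no liver. In wild-type mice these numbers were 4 and 2. Such probes entered the test through 1 tissue, so the counts describe them and do not support a division by tissue. Sult4a1, the brain sulfotransferase with no established substrate, had log2 signals of 13.42, 13.50, 13.33 and 13.46 in homozygous brains, and of 13.73, 13.39, 13.42 and 13.20 in wild-type brains. Its liver values were 4.45, 4.47, 4.39 and 4.68 in homozygous mice, where it was detected on no array, and 4.77, 5.05, 4.40 and 4.50 in wild-type mice, where it was detected on 1. Signal in liver was thus at least 354-fold lower than in brain in homozygous mice. In wild-type mice the fitted log2 difference was -8.76, which rests on liver signals near background and is no bound. Both tested probes of Sult2b1, which sulfonates cholesterol and pregnenolone, were also lower in liver, by at least 2.32-fold and 1.37-fold in homozygous mice and at least 2.11-fold and 1.36-fold in wild-type mice. Conversely, Sult2a8, a bile acid sulfotransferase of mouse liver, was at least 136-fold higher in liver in homozygous and at least 104-fold higher in wild-type mice. Sult1d1, which acts on dopamine and other catecholamines in mice, was at least 35.3-fold higher in liver in homozygous mice and at least 29.1-fold higher in wild-type mice. Sult1a1, the phenol sulfotransferase, was detected in every sample of both tissues and was 33.6-fold higher in liver in homozygous and 22.2-fold higher in wild-type mice.

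Not all members gave a signal. Of the 71 probes, 18 were tested in no comparison, and 15 of these were detected on none of the 16 arrays. The 18 were both Sult1b1 probes, Sult1c1, Sult1e1 (the oestrogen sulfotransferase), Sult2a6 and Sult3a1, Ugt2a1, Ugt2a2, Ugt2b5, Ugt2b37, Ugt2b38, Gstm3, Gstt4 and Mgst2, and 1 probe each of Ugt1a2, Ugt2a3, Sult1d1 and Sult2b1. For the last 4 genes another probe was measured.

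**Figure D1:**
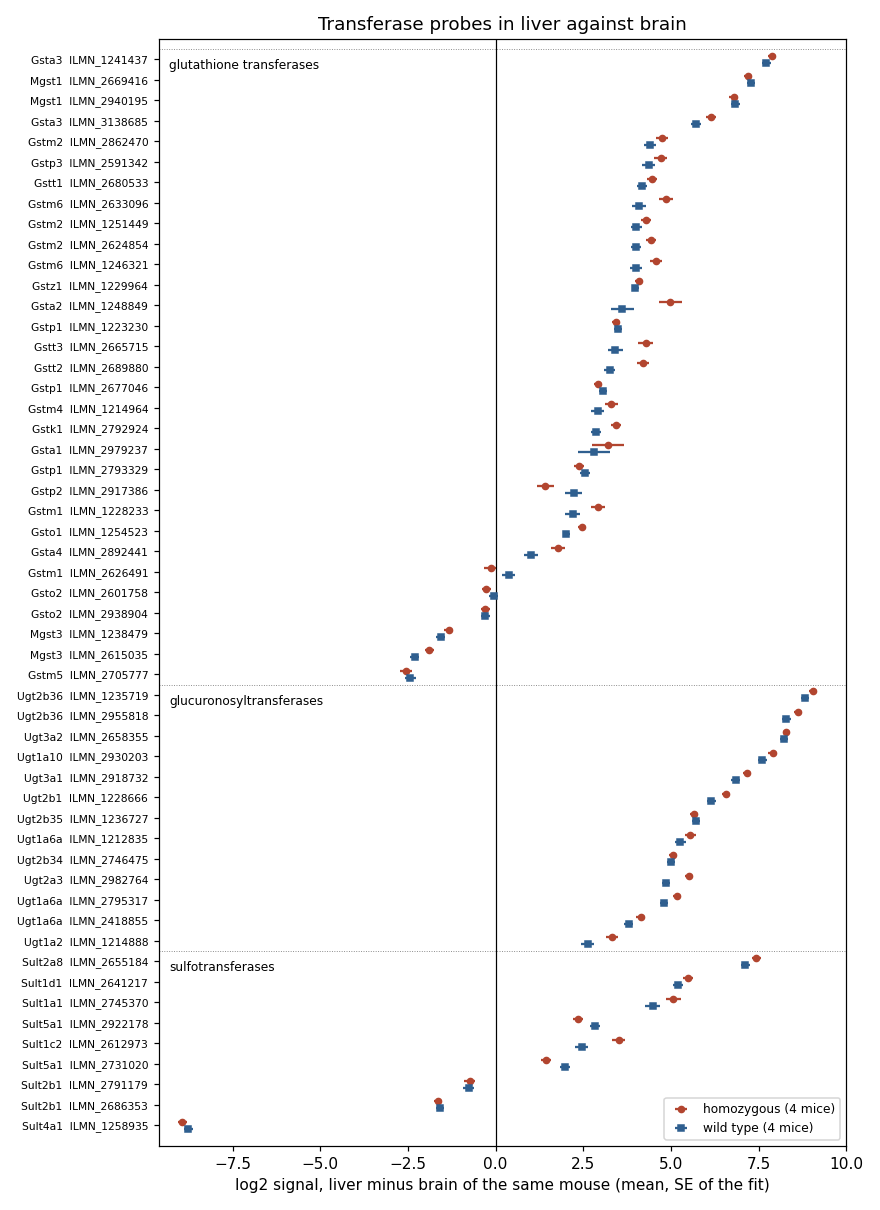
Liver minus brain difference in log2 signal (horizontal axis) for the 53 transferase probes tested, with circles for homozygous and squares for wild-type mice (means of 4 mice, bars are the SE of the fit). All 13 glucuronosyltransferase probes lie right of 0, and Sult4a1 lies farthest left at -8.93 in homozygous and -8.76 in wild-type mice.

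In liver, the comparison of genotypes asked which transcripts differ with the Pts allele. Two-sided limma tests of 47 transferase probes of 35 genes, all detected on all 8 livers, found that Gstt2 and Ugt2a3 rose in homozygous mice and that no member fell. Thus 2 of 47 probes rose and 0 fell, where 0.368% of all 11955 tested probes rose and 0.535% fell. At an unadjusted p under 0.05, 23 of the 47 were higher in homozygous mice and 3 lower, against 11.9% and 10.7% of all probes. The difference was above 0 for 38 of 47 probes (80.9%), against 53.5% of all probes, and the median difference was 0.38 on the log2 scale, against 0.02 over all probes. Without wild-type mice 1 and 2, 0 probes passed, 7 were higher and 3 lower at an unadjusted p under 0.05, 35 of 47 (74.5%) were above 0, and the median was 0.16. Of all 11955 probes in that fit, 9 rose and 14 fell, and 6.68% were higher and 6.61% lower at an unadjusted p under 0.05. Above 0 were 51.1% of all probes, with a median of 0.005. The other 24 probes were not tested in liver, and 21 of the 71 were detected on no liver array.

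Gstt2 is a theta-class glutathione transferase. Its log2 signal in liver was 9.31, 9.44, 9.59 and 9.48 in homozygous mice 1 to 4, and 8.14, 7.89, 8.72 and 8.73 in wild-type mice 1 to 4. The lowest homozygous liver exceeded the highest wild-type liver, and wild-type mice 1 and 2 were the lowest. The difference was 1.09 (SE 0.19, n = 4 each, adjusted p = 0.0453 by limma), and without wild-type mice 1 and 2 it was 0.72 (SE 0.12, adjusted p = 0.0612). Leaving out 1 mouse at a time gave differences between 0.93 and 1.21, with the adjusted p under 0.05 in 2 of 8 such fits, those without wild-type mouse 3 or 4, and up to 0.166 in the other 6.

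Ugt2a3, a glucuronosyltransferase whose human counterpart acts on bile acids, had log2 signals of 9.66, 9.60, 9.92 and 9.64 in homozygous livers, and of 9.02, 8.92, 9.06 and 9.30 in wild-type livers. There was no overlap between genotypes, wild-type mice 1 and 2 were the lowest, close to wild-type mouse 3, and wild-type mouse 4 was the highest of its group. The difference was 0.63 (SE 0.12, adjusted p = 0.0455), 0.52 without wild-type mice 1 and 2 (adjusted p = 0.156), and between 0.56 and 0.70 when 1 mouse was left out at a time, with the same 2 of 8 fits past the threshold. Its second probe was not detected on any array.

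Several glutathione transferases had differences of like direction that did not pass. Gsto1, the omega-class enzyme with thioltransferase and dehydroascorbate reductase activity, read 11.66, 11.38, 11.60 and 11.49 in homozygous livers, and 10.96, 10.87, 11.17 and 11.04 in wild-type livers. The difference was 0.52 (SE 0.11, adjusted p = 0.0561), with all homozygous above all wild-type livers, and it was 0.43 without wild-type mice 1 and 2. Gstk1, the kappa-class enzyme of mitochondria and peroxisomes, read 12.08, 12.14, 12.08 and 12.12 in homozygous livers, and 11.47, 11.35, 11.84 and 11.71 in wild-type livers. Its homozygous values spanned less than its wild-type values and did not overlap them, and the difference was 0.52 (SE 0.12, adjusted p = 0.0711), or 0.34 without the same 2 mice.

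The alpha class held the largest difference. Gsta2 read 9.94, 8.61, 9.24 and 9.08 in homozygous livers, and 7.04, 6.48, 8.04 and 9.02 in wild-type livers. The difference was 1.57, but wild-type mouse 4 lay within the homozygous range and the SE was 0.50 (adjusted p = 0.129). Without wild-type mice 1 and 2 it was 0.69. Gsta4, which conjugates hydroxynonenal from lipid peroxidation, read 9.96, 9.71, 9.83 and 9.58 in homozygous livers, and 8.48, 8.23, 9.16 and 9.53 in wild-type livers. The genotypes stayed separate, and the difference was 0.92 (SE 0.26, adjusted p = 0.105), or 0.43 without the 2 mice. Gsta1 read 8.57, 6.80, 6.81 and 6.60 in homozygous livers, and 6.10, 5.69, 6.50 and 9.03 in wild-type livers, so that 1 mouse of each genotype exceeded all the others (difference 0.36, SE 0.70, and -0.58 without wild-type mice 1 and 2). Gsta1, Gsta2 and Gsta4 lie on chromosome 9, as does Pts, so alleles linked to Pts and the genotype cannot be told apart for them.

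Mu-class and other theta-class members also depended on the 2 wild-type mice. The probes of Gstm6 differed by 0.81 (SE 0.30) and 0.76, and by 0.19 and 0.14 without wild-type mice 1 and 2. The bright Gstm1 probe differed by 0.69 (SE 0.27) and by 0.21 without them, and Gstt3 by 0.78 (SE 0.27) and by 0.33. Mu-class genes are close in sequence, and cross-hybridisation between them was not tested. Of the members named for a high liver signal, Gstp1 was at -0.04 and 0.02 on its 2 bright probes, and at -0.35 and -0.23 without the 2 mice. Mgst1 was at -0.21 and 0.08 on its 2 probes, and at -0.12 and 0.02 without them. Gstp2 read 5.84, 6.67, 5.27 and 6.11 in homozygous livers, and 6.63, 7.32, 6.42 and 6.58 in wild-type livers. The ranges overlapped, with a difference of -0.76 (SE 0.29, adjusted p = 0.172), or -0.53 without the 2 mice. Gstp2 is nearly identical to Gstp1, so signal shared between them is possible and was not tested.

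**Figure D2:**
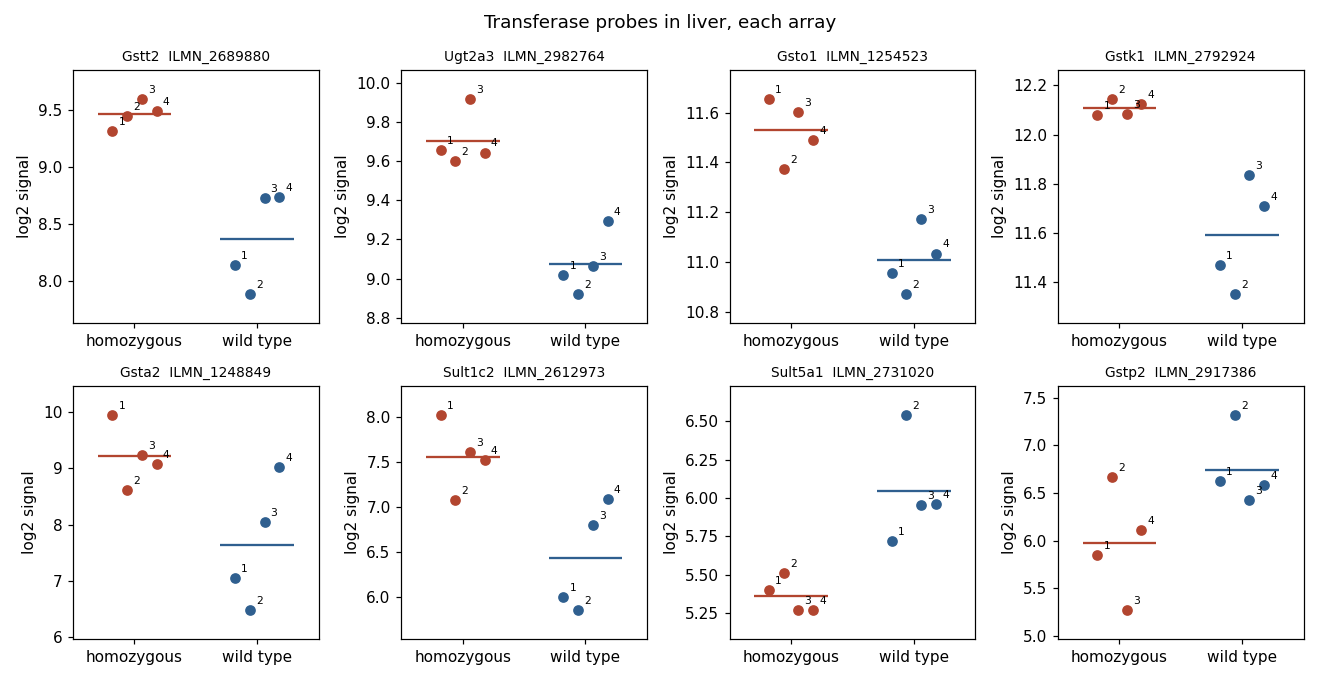
Log2 signal (vertical axis, its range set per panel) of 8 transferase probes on each liver array, with homozygous mice left of wild-type mice, mouse numbers beside the points and a line at each group's mean. Gstt2 and Ugt2a3 passed the test; in Gstt2, Ugt2a3, Gsto1, Gstk1, Gsta2 and Sult1c2 wild-type mice 1 and 2 are the lowest 2 of all livers.

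Of the 12 glucuronosyltransferase probes besides Ugt2a3, 10 lay above 0 in liver and 7 were higher at an unadjusted p under 0.05, where 11.9% of all probes were. Their median was 0.38 and their range -0.15 to 0.70. Without wild-type mice 1 and 2, 10 of the 12 were above 0 and 0 had an unadjusted p under 0.05 by limma (6.68% of all probes were higher at that level), with a median of 0.16. Ugt1a2 read 6.97, 7.43, 7.65 and 7.39 in homozygous livers, and 6.58, 6.03, 6.91 and 7.12 in wild-type livers. Wild-type mice 1 and 2 were again the lowest and the ranges overlapped, with a difference of 0.70 (SE 0.23, adjusted p = 0.137), or 0.35 without those mice. Both probes of Ugt2b36 had groups that did not overlap, with differences of 0.38 and 0.39, or 0.22 and 0.16 without the 2 mice. The 3 probes of Ugt1a6a, an enzyme of phenol glucuronidation, were at 0.48, 0.39 and 0.20, or 0.40, 0.26 and 0.07 without them. By contrast, Ugt3a2 was at -0.01 (SE 0.09) and Ugt2b35 at -0.15 (SE 0.12), or -0.05 and -0.24 without them.

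The sulfotransferases did not share 1 direction in liver. Sult1c2 read 8.02, 7.07, 7.61 and 7.52 in homozygous livers, and 5.99, 5.85, 6.80 and 7.09 in wild-type livers, which overlapped only through homozygous mouse 2 and wild-type mouse 4. Its difference was 1.12 (SE 0.30, adjusted p = 0.0942), or 0.61 when wild-type mice 1 and 2 were left out. Sult2a8 read 11.81, 12.12, 11.88 and 12.08 in homozygous livers, and 11.34, 11.32, 11.63 and 11.72 in wild-type livers, with no overlap and a difference of 0.47 (SE 0.13, adjusted p = 0.0999), or 0.30 without the 2 mice. Sult5a1, a member with no well-defined substrate, lay on the other side: the dimmer probe read 5.40, 5.51, 5.27 and 5.27 in homozygous livers, and 5.72, 6.54, 5.95 and 5.96 in wild-type livers. The difference was -0.68 (SE 0.17, adjusted p = 0.0782), or -0.60 with the same mice left out. Its second probe gave -0.62 (SE 0.17), also without overlap, or -0.51 with them left out. Sult1a1 was at 0.04 (SE 0.14), or 0.20 with them left out.

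Across the 47 liver probes, 12 had all homozygous above all wild-type arrays, where 6.73% of all probes did, and 3 had all homozygous below all wild-type arrays, where 6.22% did. The 12 were probes of Gsta3, Gsta4, Gstk1, Gstm6, Gsto1, Gstt2, Gstz1, Sult2a8, Ugt1a6a and Ugt2a3, and both of Ugt2b36. The 3 were 1 Mgst1 probe and both Sult5a1 probes. Against wild-type mice 3 and 4 alone, 12 probes had all homozygous above, where 11.8% of all probes did, and 4 all homozygous below, where 11.3% did. Full separation of 4 against 4 mice always gives a two-sided exact permutation p of 0.0286, the smallest that this design allows. For the 15 probes that value was thus fixed by how they were picked and is no support.

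**Figure D3:**
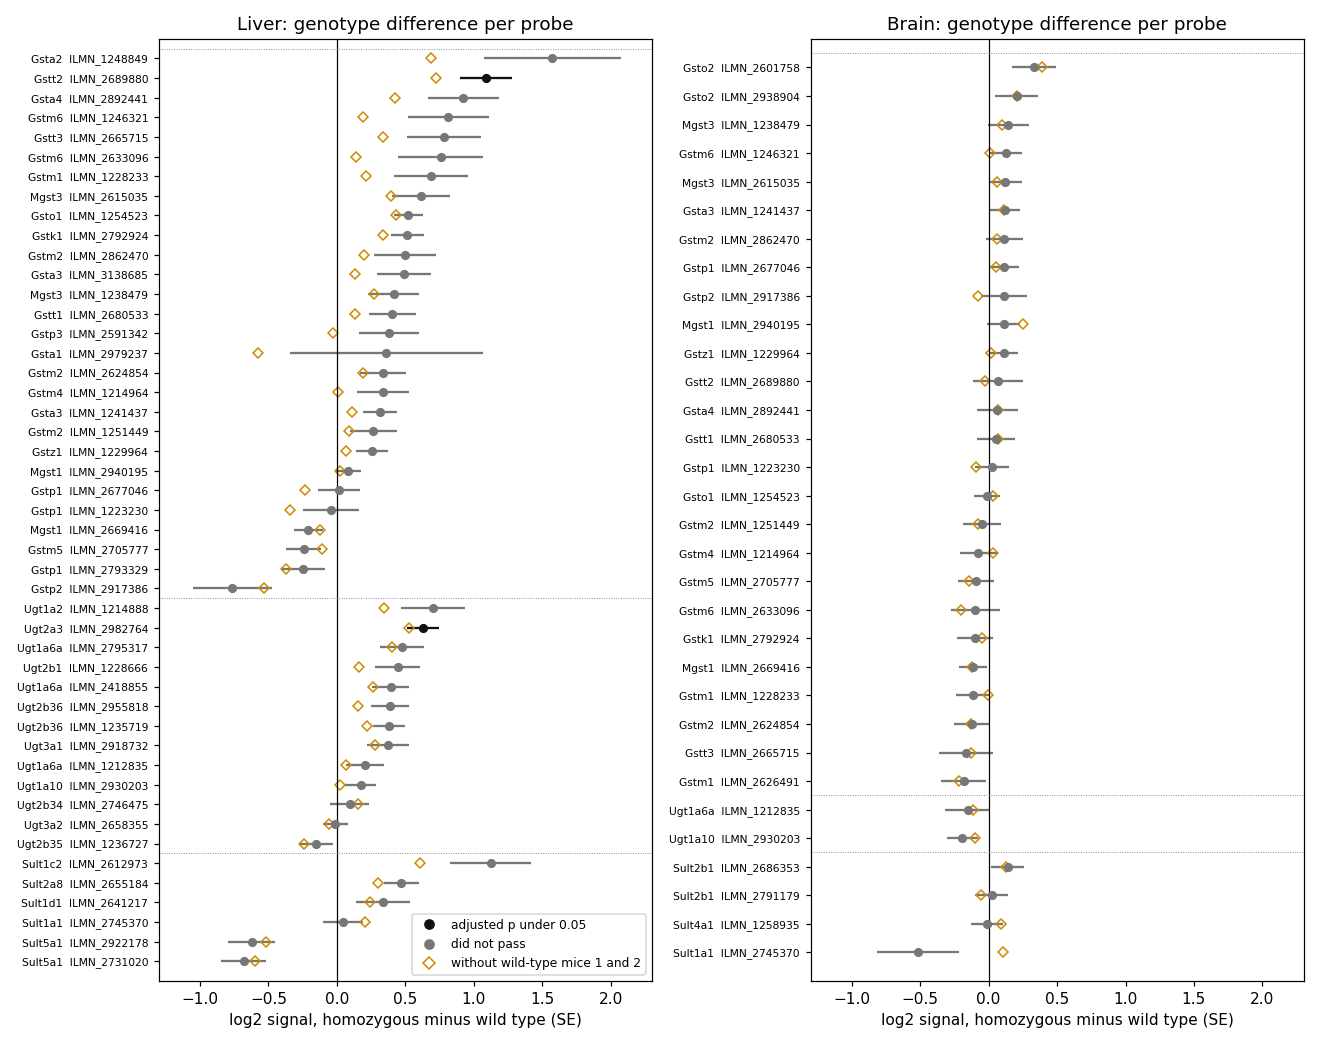
Homozygous minus wild-type difference in log2 signal (horizontal axis, bars are the SE of the fit, 4 mice per genotype) for 47 probes in liver on the left and 32 in brain on the right; black points passed, grey did not, and open diamonds leave out wild-type mice 1 and 2. In liver most points lie right of 0 and most diamonds lie nearer to 0, while in brain no point passed.

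The 2 livers with the highest acute phase signal had the lowest mean signal of glutathione transferases and of glucuronosyltransferases. Relative to the mean of the 8 livers, the mean log2 signal of the 28 glutathione transferase probes was 0.28, 0.20, 0.19 and 0.11 in homozygous mice 1 to 4, and -0.47, -0.51, -0.05 and 0.24 in wild-type mice 1 to 4. For the 13 glucuronosyltransferase probes it was 0.15, 0.06, 0.21 and 0.21 in homozygous mice, and -0.23, -0.35, 0.00 and -0.05 in wild-type mice. The 6 sulfotransferase probes lay between -0.06 and 0.12 in homozygous mice, and between -0.27 and 0.08 in wild-type mice. Wild-type mouse 4 was thus at the homozygous level for glutathione transferases and below it for glucuronosyltransferases. Hepatocyte markers (7 genes) were between 0.10 and 0.14 in homozygous mice, whereas wild-type mice 1 to 4 had -0.32, -0.23, -0.02 and 0.10. Markers of some other liver cells also differed between genotypes. Endothelial markers (3 tested) had a median of -0.12, and 0 had an unadjusted p under 0.05 by limma. Bile duct markers (2 tested) had a median of -0.49, with 0 higher and 1 lower at that level. Of 6 liver macrophage markers on the array 5 were tested, all 5 lay below 0, and 4 had an unadjusted p under 0.05. Their mean lay between -0.37 and -0.09 in homozygous mice, and between 0.13 and 0.52 in wild-type mice. Vsig4, a macrophage complement receptor, fell by 1.04 (adjusted p = 0.0418), and was at -1.14 (adjusted p = 0.0799) without wild-type mice 1 and 2. Of 6 neutrophil and monocyte markers 2 were tested and 3 were detected on no liver; their mean lay between -1.08 and -0.53 in homozygous mice, and between -0.20 and 1.39 in wild-type mice. S100a8, a neutrophil calcium-binding protein, fell by 2.51 (adjusted p = 0.0490), and was at -1.63 (adjusted p = 0.0897) without the 2 mice. The part of these cells in the transferase values was not tested. The part of the acute phase difference in the transferase values was not tested beyond leaving out the 2 mice.

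**Figure D4:**
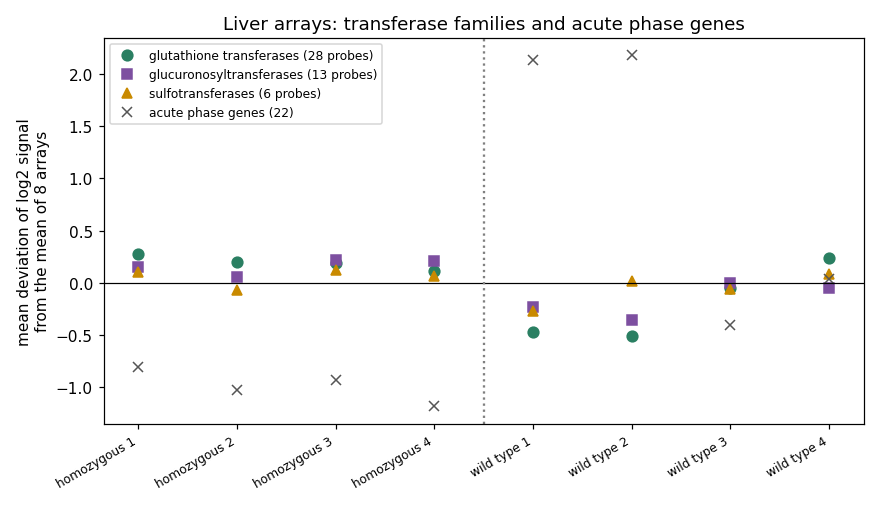
Mean deviation of log2 signal from the mean of the 8 livers (vertical axis) for each liver array, homozygous mice on the left, for glutathione transferases (28 probes), glucuronosyltransferases (13), sulfotransferases (6) and 22 acute phase genes. Wild-type mice 1 and 2 have the highest acute phase level, at 2.13 and 2.18, and the lowest glutathione transferase level, at -0.47 and -0.51.

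In brain, where the comparison asked the same question, no transferase passed. Of 32 tested probes of 23 genes, 0 rose and 0 fell, where 0% of all 13862 tested probes rose and 0.0144% fell. None of the 32 had an unadjusted p under 0.05 by limma, where 1.58% of all probes were higher and 1.59% lower at that level. The differences were above 0 for 17 (all tested probes, 51.6%) and below 0 for 15, with a median of 0.02 on the log2 scale. No probe had groups that did not overlap, where 1.15% of all probes had all homozygous above and 0.909% all homozygous below all wild-type arrays. Of the members named for a high brain signal, Sult4a1 was at -0.01 (SE 0.12), Gstp1 at 0.11 (SE 0.11), Mgst3 at 0.12 (SE 0.12) and Gstm5 at -0.09 (SE 0.13). With array brightness as a block, the smallest adjusted p among the 32 was 0.649, and it was 0.815 within the brighter and 0.882 within the dimmer arrays.

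The largest difference in brain belonged to Sult1a1. Its log2 signal was 7.33, 7.53, 7.63 and 7.69 in homozygous brains, and 8.66, 8.70, 7.62 and 7.27 in wild-type brains. Wild-type mice 1 and 2, whose livers had the high acute phase signal, were above all other brains, and the other 2 wild-type brains lay within or below the homozygous range. The difference was -0.52 (SE 0.30, adjusted p = 1), or 0.10 with these 2 mice left out. In those 2 brains, 3 neutrophil and monocyte genes averaged 1.86 and 1.59 above the mean of all brains on the log2 scale, and between -0.96 and -0.22 in the other 6 brains. Their part in the Sult1a1 values was not tested. Next in size were the 2 dim Gsto2 probes, at 0.33 (SE 0.16) and 0.20 (SE 0.16), and Ugt1a10 at -0.19 (SE 0.11), which was close to background in brain.

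Whether the genotype difference itself differed between tissues was tested in 26 transferase probes measured in both. None of them passed, where 0.0286% of the 10492 probes tested did. At an unadjusted p under 0.05, 9 of the 26 had a larger homozygous minus wild-type difference in liver and 1 a smaller one, against 5.28% and 5.74% of all probes, and the median was 0.32. Gstt2 had the smallest adjusted p, with a difference between tissues of 0.95 (SE 0.23, adjusted p = 0.223). Without wild-type mice 1 and 2, 1 probe had a larger difference in liver at an unadjusted p under 0.05, 0 had a smaller one, and the median was 0.12. Of all probes in that fit, 2.4% had a larger and 2.69% a smaller difference at that level. A genotype effect confined to liver was therefore not shown by this test.

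The genes that supply and control these reactions were examined in liver as lists, with each gene represented by its brightest probe. Counts of higher and lower genes in them are at an unadjusted p under 0.05, to be read against 11.9% and 10.7% of all liver probes. Of 18 tested regulators of transferase genes, 0 rose and 0 fell, with 3 higher and 3 lower at an unadjusted p under 0.05 and a median of 0.07. Of 19 genes of glutathione synthesis, recycling and use, 0 passed (2 higher and 2 lower, median -0.07). The supply of UDP-glucuronic acid (9 genes, 2 higher and 1 lower, median -0.01) and the supply and removal of sulfate (15 genes, 5 higher and 3 lower, median 0.10) also held no gene that passed. The same was true of 8 transporters of conjugates (2 higher and 1 lower, median 0.24) and of 14 NRF2 targets outside the transferases (5 higher and 0 lower, median 0.17). The median difference of the transferases, 0.38, lay above that of each of these 6 lists, but below the 0.76 of the cytochrome P450 list described next. The transferase median counts all 47 probes, with several for some genes, whereas the list medians count 1 probe per gene. These comparisons are a description with no test of the gaps. Without wild-type mice 1 and 2 the transferase median of 0.16 lay below that of the NRF2 targets (0.22) and above those of the other 5 lists (-0.06 to 0.07), and again 0 genes of the 6 lists passed.

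Cytochrome P450s and other conjugating enzymes each held 1 gene that passed. Of 7 P450 genes that the xenobiotic receptors or PPAR alpha control, Cyp3a11, a drug- and steroid-oxidising enzyme, rose by 0.76 (SE 0.10, adjusted p = 0.0251), 4 were higher at an unadjusted p under 0.05, and the median was 0.76. Of 20 other conjugating and hydrolysing enzymes, Nnmt, which methylates nicotinamide, fell by 4.01 (SE 0.66, adjusted p = 0.0421), and 9 were higher and 1 lower at an unadjusted p under 0.05, with a median of 0.34. Of the 22 acute phase genes, 3 fell, namely Orm1, Saa1 and Saa2, and 14 were lower at an unadjusted p under 0.05, with a median of -1.41. With wild-type mice 1 and 2 left out, Cyp3a11 was at 0.62 (adjusted p = 0.0799 by limma) and Nnmt at -3.40 (adjusted p = 0.128). In the same fit 3 acute phase genes passed, with Saa2 among them at -2.94 (adjusted p = 0.0411). They were not the same 3 genes, because Saa1, at -3.12 (adjusted p = 0.0791), and Orm1, at -0.85 (adjusted p = 0.168), no longer passed. In that fit the P450 median was 0.62, above the 0.16 of the transferases, and 4 of the 7 were higher at an unadjusted p under 0.05. The other conjugating and hydrolysing enzymes had a median of 0.09, with 0 higher and 2 lower. Of all liver probes in that fit, 6.68% were higher and 6.61% lower at that level. In brain 0 genes of these 9 lists passed.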

How the data were processed

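Total RNA of 16 samples was hybridised to single-colour Illumina bead arrays, 1 per tissue and mouse. The deposited signal columns hold intensity on a linear scale, not normalised between arrays, each beside a deposited detection p-value. The authors' second table holds intensity values normalised across arrays, with medians of 140.19 to 140.27 and the same rank order within each array (Spearman correlation of 1 on 16 arrays). Per the submitters' processing notes, GenomeStudio 2011.1 was used, with settings not given in the sources used here. The table held 0 columns without a sample.

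Signals were background-corrected with nec of limma 3.58.1 (R 4.3.3; detection p-values, offset 16), quantile-normalised within tissue, or over all 16 arrays for liver minus brain, and log2-transformed. Probes entered a test where the detection p was under 0.05 on at least 4 arrays of the fit. Homozygous and wild-type arrays were compared with lmFit and eBayes within each tissue, and liver minus brain through differences within each mouse, tied by the animal identifiers. P-values were adjusted by Benjamini-Hochberg over all tested probes (threshold 0.05), and SE is that of the fit. The script was tested on simulated data.

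Transferase symbols matched RefSeq for 51 of 51 genes. Over the array, 23978 probes had 1 symbol, 1719 none and 0 several. Members and gene lists were chosen with earlier results of these data known. Probes were named where they passed a genotype test, had 1 of the 10 largest genotype differences in a tissue, or were among the 4 of their family with the highest signal in a tissue or the largest tissue difference in either direction. Other probes of those genes, and members with groups that did not overlap, are named to complete the account. Arrays carry no batch label, and precision is limited by 4 mice per group.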

Additional observations from a re-analysis of the deposited data

Results flagged for a closer look

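The check covered only the probes picked by the naming rule given above, by genotype and in each tissue where they were tested. Of these 106 groups of 4 arrays, 5 held 1 array whose gap to its nearest neighbour was larger, as a share of the group's range, than Dixon's critical value. Gsta1 was not among those probes, and its homozygous liver 1 read 8.57, against 6.60 to 6.81 in the other homozygous livers. Chance alone gives such a gap in about 1 in 20 groups, so 5 of 106 is no more than that. In liver, Mgst3 (ILMN_2615035) read 8.83 in wild-type mouse 4, against 7.94 to 7.98 in the other 3 wild-type livers, which adds to the spread behind its difference of 0.62. In brain, Gstt2 read 6.19 in homozygous mouse 3, against 5.60 to 5.68 in the other homozygous brains. Gsto2 (ILMN_2601758) read 4.54 in wild-type mouse 4, against 4.79 to 4.84 in the other wild-type brains. Gstm5 read 10.9 in wild-type mouse 3, against 10.64 to 10.67 in the others. Sult2b1 (ILMN_2791179) read 6.04 in wild-type mouse 4, against 5.68 to 5.72 in the others.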

How the results depend on the processing

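Of the transferase results, the liver count between genotypes was the one that moved most with the processing. It was 2 probes as reported, and 0 with all 16 arrays quantile-normalised together, with detection required on every array, with no detection filter, with the replicate block, and without wild-type mice 1 and 2. It was 31 with array weights, where 1584 of all 11955 probes rose and 1347 fell, against 44 and 64 in the reported fit. With all arrays in 1 fit it was 15, where 448 of all probes rose and 452 fell. Leaving out 1 mouse at a time gave between 0 and 7 probes: 7 without wild-type mouse 3, 6 without wild-type mouse 4 and 0 in the other 6 fits. Of all probes, 505 rose and 450 fell without wild-type mouse 3, and 72 rose and 99 fell without wild-type mouse 4. The cause was not tested. The 2 calls lay close to the threshold: Gstt2 passed in 7 of 19 alternatives (adjusted p 0.00405 to 0.166) and Ugt2a3 in 8 of 19 (adjusted p 0.00376 to 0.166).

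Replicate numbers mark different animals in the 2 genotypes. The correlations of same-numbered mice, as deviations from their group means, were -0.04, -0.00, -0.02 and -0.03 in liver and 0.56, -0.46, -0.51 and 0.42 in brain. The liver values gave no sign of pairing. In brain they were positive where both mice were in the same brightness set and negative where they were not. The brain values therefore cannot decide whether the numbers pair the mice. Under the replicate block the smallest adjusted p among the liver probes was 0.0625.

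The brain count and the count for the difference between tissues stayed at 0 under every alternative run. The counts for liver minus brain were 50 in each genotype, 50 to 52 in homozygous and 50 to 51 in wild-type mice with 1 mouse left out, and 23 in each where detection on every array was required, which left 23 probes to test. In liver, probes other than Gstt2 and Ugt2a3 passed 55 times over the alternatives: 29 under array weights, 13 in the single fit of all arrays, 5 when wild-type mouse 3 was left out, 4 when wild-type mouse 4 was, and 1 each in 4 others. No called value of a named probe turned its sign. Dim probes near background, such as Gsto2 and Ugt1a10 in brain, have little range in which a difference could be seen.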
